A study of Mus musculus with 10 samples.

Results

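Interleukins are signalling proteins by which immune, epithelial and stromal cells act on each other, and this account covers their genes, those of their receptor chains and those of their soluble antagonists in the mouse terminal ileum. The members were all genes whose single symbol in the platform annotation begins with Il and a digit, with 1 gene left out, and where several probe sets read a gene, the one with the highest mean was taken. That gave 72 genes, measured by 114 probe sets, of 18192 genes with a single symbol. By role, 31 were ligands, 6 were antagonists, decoy receptors or binding proteins, 33 were receptor chains, and 2 were others (Il4i1, an amino acid oxidase, and Il1bos, an antisense transcript of Il1b). The 72 genes include 28 whose probe sets lay in the dimmest 40 percent of the array, under a log2 value of 4.15, and the other 44 were tested.

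The samples came from 10 male mice of the strain C57BL/6JJmsSlc, 7 weeks of age in the labels, housed singly, fed the purified AIN-93G diet and fasted for 3 h before tissue was collected from the lower small intestine. The 5 control mice were unstressed. The 5 stressed mice had gone through a subchronic, mild form of social defeat, in which a mouse met a resident Slc:ICR male for 5 min once bitten on day 1 and for 0.5 min less on each following day, down to 0.5 min on day 10. The comparison asks which transcripts of the ileum differ after that stress. Each mouse gave 1 array, so n counts mice, and no mouse was pooled. All values below are log2 array values, and a difference is stressed minus control with its standard error (SE) from limma.

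IL-18 and IL-33 belong to the IL-1 family; IL-18 is made as an inactive precursor by epithelial cells among others, is cut by inflammasome caspases and is bound in solution by IL-18 binding protein. IL-22 and IL-17 from lymphocytes act on epithelial cells, which carry the receptor chains Il22ra1, Il10rb, Il17ra and Il17rc, and induce antimicrobial and barrier genes there. IL-7 and IL-15 sustain lymphocytes through receptors that share the common gamma chain, while IL-10 and IL-27 restrain inflammation through receptors on leukocytes.

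The array of control mouse 1 stood apart, correlating with the other arrays at 0.918 to 0.947 across genes, where those 9 correlated at 0.975 to 0.995. Its ileal marker Fabp6 was at 7.88, against 13.88 to 14.10 in the other mice, and Car1, a carbonic anhydrase of the large intestine, was at 14.17. Stressed mouse 4 had Car1 at 13.32 but Fabp6 at 13.95, and in the other 8 mice Car1 was between 4.95 and 7.41. Control mouse 1 was the highest or the lowest of all mice for 20 of the 44 tested interleukin genes (45.5%) and for 53.2% of all genes tested. Control mouse 3, kept in both comparisons, was so for 19 of the 44 (43.2%) and for 37.8% of all genes tested. It was the highest of all mice for 14 of the 44 and the lowest for 5. Because control mouse 1 stood apart across genes, differences are given with all 10 mice and without control mouse 1. The latter leaves 4 control and 5 stressed mice, and the part of large intestine transcripts in the results was not tested.

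Il18 and its soluble inhibitor Il18bp were the members with the largest differences between stressed and control mice, and both were lower in stressed mice. The receptor chains Il27ra and Il10ra were lower by smaller amounts, with signals near the filter floor. Il18 differed by -0.84 ± 0.30 (SE) with all mice and by -1.06 ± 0.24 (SE) without control mouse 1, that is 1.79-fold and 2.09-fold lower. None of the 44 members passed limma over all 13666 genes at a Benjamini-Hochberg adjusted p under 0.05, in either comparison. Of all genes, 0% passed with all mice and 0.798% without control mouse 1, of which 0.534% were lower and 0.263% higher.

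At an unadjusted p under 0.05 limma had 7 of the 44 members with all mice (15.9%, against 7.82% of all genes). Of these, 6 were lower and 1 was higher in stressed mice, where 3.96% and 3.86% of all genes were. Without control mouse 1 it had 11 members (25%, against 18% of all genes), 7 lower and 4 higher, where 6.56% and 11.4% of all genes were. With no threshold, 28 members were lower with all mice and 26 without control mouse 1 (63.6% and 59.1%), against 49.1% and 43.8% of all genes. By role, 10 of 14 tested ligands, 5 of 5 antagonists and 13 of 25 receptor chains were lower with all mice, and 11, 4 and 11 without control mouse 1. The median difference of the members was -0.05 and -0.04, where that of all genes was 0.00 and 0.03.

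Il18, the single ligand among these 4 genes, was at 8.32, 9.44, 9.38, 9.34 and 9.46 in control mice 1 to 5, and at 8.01, 9.26, 7.70, 8.25 and 8.51 in stressed mice 1 to 5. The 4 control mice other than mouse 1 lay within a narrow band, and each stressed mouse lay below that band, with stressed mouse 2 just under it. Control mouse 1 fell inside the range of the stressed mice, so the groups overlapped with all mice and did not without it. The means were 9.19 ± 0.49 (SD, n = 5) in control mice, 9.41 ± 0.06 (SD, n = 4) without control mouse 1 and 8.34 ± 0.59 (SD, n = 5) in stressed mice. In limma, Il18 had an adjusted p of 0.506 with all mice and of 0.0636 when control mouse 1 was left out. Leaving out stressed mouse 2 as well gave -1.29 and a limma adjusted p of 0.00765, and leaving out stressed mouse 4 as well gave -1.04 and an adjusted p of 0.157.

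Il18bp, which encodes the secreted protein that binds IL-18 and keeps it from its receptor, was at 5.94, 6.70, 6.58, 6.32 and 5.88 in control mice 1 to 5. In stressed mice 1 to 5 it was at 5.61, 5.96, 5.72, 5.43 and 5.15. Of the stressed mice, mouse 2 alone was above the lowest control mouse, which was mouse 5, and the groups overlapped with and without control mouse 1. Il18bp differed by -0.71 ± 0.19 (SE, limma adjusted p = 0.367) with all mice, and with control mouse 1 left out by -0.80 ± 0.18 (SE, limma adjusted p = 0.0636). In the latter comparison it passed in limma under 3 of 15 alternatives, with an adjusted p up to 0.158 among them all. It passed in limma with the replicate number as a block, which drops stressed mouse 1 (adjusted p = 0.0136). It also passed in limma without control mouse 5 (adjusted p = 0.0336) or without stressed mouse 2 (adjusted p = 0.0445).

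**Figure D1:**
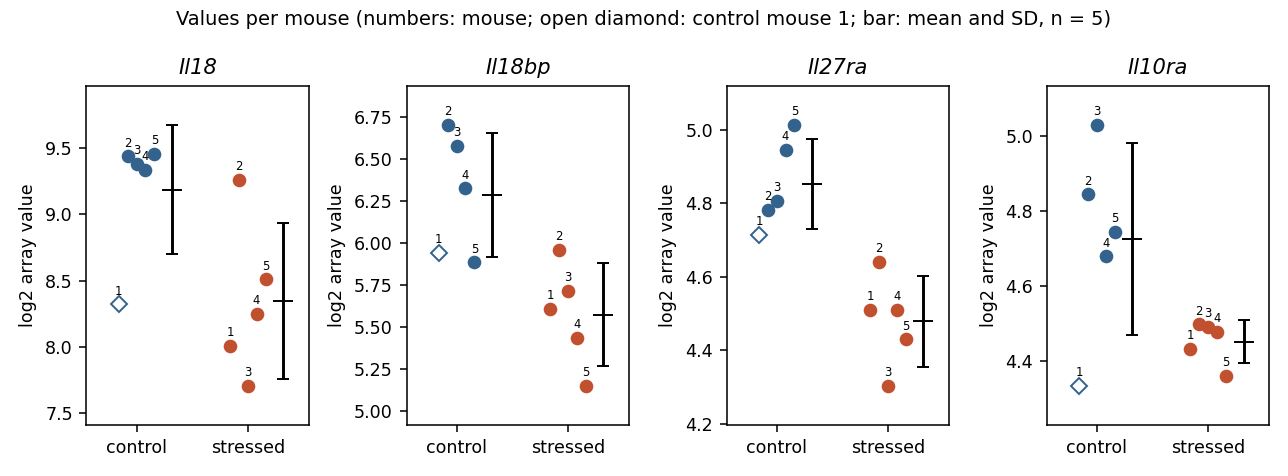
Log2 array values (vertical axes, each with its own range) of Il18, Il18bp, Il27ra and Il10ra in 5 control and 5 stressed mice, 1 point per mouse labelled with the mouse number, with the group mean and SD beside the points. Il18 of control mouse 1 (open diamond, 8.32) sits among the stressed mice, whereas the other controls sit at 9.34 to 9.46, and only for Il27ra do the 2 groups not overlap with all mice.

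The 2 chains of the IL-18 receptor lay closer to 0 than the ligand. Il18r1, the ligand-binding chain, differed by 0.10 ± 0.10 (SE) with all mice and 0.10 ± 0.11 (SE) without control mouse 1. Il18rap, the accessory chain, differed by -0.24 ± 0.12 (SE) and -0.23 ± 0.13 (SE). Il1rn, the antagonist of the IL-1 receptor, differed by -0.10 ± 0.14 (SE) and 0.03 ± 0.09 (SE), the sign turning with control mouse 1, which had its highest value (6.25). The limma adjusted p of both IL-18 receptor chains was between 0.359 and 0.836 over the 2 comparisons.

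The sequences upstream of the members at an unadjusted p under 0.05 in both comparisons are given where the RefSeq promoter table of build GRCm38.p6 held them, since promoters are where regulators of these genes can bind. They are those of Il18 (chr9:50554450-50554699, plus strand), Il18bp (chr7:102018233-102018482, minus strand) and Il20 (chr1:130911297-130911546, minus strand). Il27ra and Il10ra also met that threshold and are named only. Each run holds the 250 bases before the annotated start, 5′ to 3′ along the gene, and capitals mark a match to a searched motif.
Il18: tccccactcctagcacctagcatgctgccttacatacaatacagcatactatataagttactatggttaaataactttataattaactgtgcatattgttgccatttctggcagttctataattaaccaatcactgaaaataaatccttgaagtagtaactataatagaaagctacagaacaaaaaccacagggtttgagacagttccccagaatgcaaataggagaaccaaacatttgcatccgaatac
Il18bp: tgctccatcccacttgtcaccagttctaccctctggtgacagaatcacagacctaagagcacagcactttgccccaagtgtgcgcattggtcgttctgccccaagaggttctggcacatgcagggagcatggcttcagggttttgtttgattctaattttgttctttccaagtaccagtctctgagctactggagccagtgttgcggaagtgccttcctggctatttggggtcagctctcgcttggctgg
Il20: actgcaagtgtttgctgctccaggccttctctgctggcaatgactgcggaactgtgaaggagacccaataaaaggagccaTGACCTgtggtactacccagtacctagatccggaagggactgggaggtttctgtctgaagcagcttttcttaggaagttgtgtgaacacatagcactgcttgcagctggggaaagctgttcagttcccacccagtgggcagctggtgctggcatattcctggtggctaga
The letters searched on both strands were TTCNNNGAA for STAT factors, TGANTCA for AP-1 and AGGTCA for ROR factors, together with the interferon response element; matches of different motifs may overlap. The runs of Il18 and Il18bp hold none of them, and that of Il20 holds the ROR letters once, as TGACCT on the other strand, at position -170 from the start. Of all 32851 promoters in the table, 7.02% held the STAT letters, 6.75% the AP-1 letters, 14% the ROR letters and 2.98% the interferon response element. The 70 promoters of 57 interleukin genes held them in 11.4%, 20%, 11.4% and 1.43%. A match describes the letters of this window and is not a measured binding site.

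Among the other ligands of the IL-1 family, Il33, an alarmin of stromal and epithelial cells, was at 7.14, 7.20, 6.84, 6.90 and 7.90 in control and at 7.16, 6.97, 7.27, 7.14 and 7.04 in stressed mice. It differed by -0.08 ± 0.18 (SE) with all mice and -0.10 ± 0.18 (SE) without control mouse 1, with control mouse 5 above every other mouse. Il1b, the inflammatory ligand cut by caspase-1, was close to the background of the array, at 4.62 to 4.99 in control and 4.65 to 4.77 in stressed mice, and differed by -0.03 ± 0.08 (SE) and -0.05 ± 0.09 (SE). Of the 5 tested ligands of this family, Il18 alone was at an unadjusted p under 0.05 in limma, in both comparisons. Il1a, Il1f6 (IL-36 alpha) and Il1f9 (IL-36 gamma) lay under the filter.

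Among the IL-1 family receptors, Il1rap and Il1rl2 were higher in stressed mice at an unadjusted p under 0.05 in 1 of the 2 comparisons each. Il1rap, the accessory chain shared by the receptors of IL-1, IL-33 and IL-36, was at 6.41, 5.83, 5.48, 5.34 and 5.64 in control mice 1 to 5 and at 5.87, 6.00, 5.91, 5.95 and 5.87 in stressed mice. Without control mouse 1, whose value was the highest, every stressed mouse was above every control mouse, and the difference was 0.35 ± 0.10 (SE, limma adjusted p = 0.101), against 0.18 ± 0.17 (SE, limma adjusted p = 0.824) with all mice. These values rest on 1 of the 5 probe sets of Il1rap. The others, all under the filter, gave -0.24 to 0.02 without control mouse 1. Il1rl2, the IL-36 receptor, was at 4.57 to 4.77 in control mice and at 4.78, 4.83, 4.75, 5.20 and 4.89 in stressed mice. It differed by 0.22 ± 0.09 (SE) with all mice, by 0.19 ± 0.09 (SE) without control mouse 1 and by 0.12 ± 0.07 (SE) without stressed mouse 4 as well, the mouse with its highest value (limma adjusted p between 0.311 and 0.606). Il1r1, the signalling receptor of IL-1, was at 8.10 in control mouse 1 and at 6.67 to 7.11 in the other 9 mice, and differed by -0.22 ± 0.21 (SE) with all mice and 0.01 ± 0.09 (SE) without that mouse, which turns its sign.

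Il27ra and Il10ra were the receptor chains at an unadjusted p under 0.05 and lower in both comparisons, and Il2rb and Il4ra were so without control mouse 1 alone. Near the filter floor of 4.15 lay Il27ra, Il10ra and Il2rb, with means over the 10 mice of 4.67, 4.59 and 4.58. The ligand Il20 and the receptor Il1rl2 (both 4.78) lay there too, and a stricter filter, at 5.53, left all of these out. Il27ra, the IL-27 receptor chain of lymphocytes, was at 4.71, 4.78, 4.81, 4.94 and 5.01 in control and at 4.51, 4.64, 4.30, 4.51 and 4.43 in stressed mice, and was the 1 tested member whose groups did not overlap with all mice. Of all genes tested, 2.28% did not overlap either (1.12% lower and 1.16% higher), so 1 of 44 is near that background. Il27ra differed by -0.37 ± 0.09 (SE, limma adjusted p = 0.329) with all mice. With control mouse 1 left out it differed by -0.41 ± 0.09 (SE, limma adjusted p = 0.0535). There it passed in limma under 3 of 14 alternatives, with an adjusted p up to 0.127 among them all. It passed in limma with array weights (adjusted p = 0.0441), with the mean of probe sets (adjusted p = 0.0496) and without stressed mouse 2 (adjusted p = 0.0412). Il27ra has 1 probe set, so the mean of probe sets left its values and its difference unchanged.

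Il10ra, the ligand-binding chain of the IL-10 receptor, was at 4.33, 4.84, 5.03, 4.68 and 4.74 in control and at 4.43, 4.50, 4.49, 4.48 and 4.36 in stressed mice. Control mouse 1 was below all stressed mice, and the other control mice were above all of them. The difference was -0.27 ± 0.11 (SE, limma adjusted p = 0.60) with all mice, and with control mouse 1 left out -0.37 ± 0.08 (SE, limma adjusted p = 0.0609). Its other measured probe set above the filter gave -0.18 and -0.20. The partner chain Il10rb, which epithelial cells also carry, differed by 0.10 ± 0.11 (SE) in both comparisons.

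Il2rb, the beta chain that IL-2 and IL-15 share on T and NK cells, was at 4.39, 4.76, 5.03, 4.57 and 4.63 in control and at 4.48, 4.45, 4.50, 4.45 and 4.52 in stressed mice. With all mice the groups overlapped and Il2rb differed by -0.19 ± 0.11 (SE, adjusted p = 0.727 in limma). Without control mouse 1 they did not overlap and it differed by -0.27 ± 0.09 (SE, limma adjusted p = 0.170). Il4ra, the chain that binds IL-4 and serves IL-13 too, was at 6.84, 7.76, 7.87, 7.15 and 7.55 in control and at 7.44, 7.18, 7.11, 7.16 and 7.05 in stressed mice, and differed by -0.39 ± 0.14 (SE, adjusted p = 0.172 in limma) without control mouse 1 and by -0.25 ± 0.18 (SE) with all mice. By the brightest probe set of each, all 6 tested receptor chains of the common gamma chain and type 2 cytokines were lower in both comparisons. Their median difference was -0.15 and -0.23, where the median over all genes was 0.00 and 0.03. Of all genes, 49.1% and 43.8% were lower in the 2 comparisons. Il7r, the IL-7 receptor chain, differed by -0.10 ± 0.16 (SE) with all mice and -0.22 ± 0.13 (SE) without control mouse 1. Its second probe set above the filter gave 0.18 and 0.10, so the direction of Il7r is not settled by these probe sets. Il13ra1, a chain of the IL-13 receptor, differed by -0.16 ± 0.15 (SE) and -0.25 ± 0.14 (SE). Of its 4 probe sets above the filter, 1 gave 0.01 with all mice and -0.26 without control mouse 1, and the others were lower in both. Il7r passed in limma once, without control mouse 1 and control mouse 5 (-0.38 ± 0.07, SE, adjusted p = 0.0439).

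Without control mouse 1, the groups did not overlap for 5 tested members, Il18, Il27ra, Il10ra and Il2rb lower and Il1rap higher. Of all genes tested, 7.24% did not overlap there, 2.72% lower and 4.51% higher. Listed markers of immune cells were read in the same mice. The mean of the 9 measured of 14 listed T cell and intraepithelial lymphocyte markers was between 5.35 and 5.91 in control mice and between 5.25 and 5.32 in stressed mice. Of these 9, 8 were lower in both comparisons, where 49.1% and 43.8% of all genes were. At an unadjusted p under 0.05 in limma, 5 and 7 of the 9 were lower, where 3.96% and 6.56% of all genes were. None of the 9 passed over all genes with all mice. Cd7 alone did without control mouse 1, where 0.534% of all genes were called lower. Cd7 passed in limma in 1 of 9 fits that left out a further mouse (adjusted p up to 0.111). Cd8a differed by -0.04 and Cd4 by 0.09 with all mice, and Cd2 and Cd8b1 lay under the filter.

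The mean of 5 measured of 8 listed mast cell markers was 5.15 to 6.11 in control and 4.60 to 4.83 in stressed mice, with no overlap. All 5 were lower with all mice and 4 without control mouse 1, where 49.1% and 43.8% of all genes were. Kit, a growth factor receptor, differed by -0.01 with all mice and 0.25 ± 0.13 (SE) without control mouse 1. The proteases Mcpt1 and Mcpt2 had the largest differences, -1.49 ± 0.38 (SE) and -1.58 ± 0.40 (SE) with all mice. Cpa3, a carboxypeptidase of mast cell granules, differed by -0.42 ± 0.10 (SE). Once control mouse 1 was left out, Cpa3 fell by 0.48 ± 0.08 (SE, adjusted p = 0.0329 in limma). Of the 5 measured markers Cpa3 alone passed there, where 0.534% of all genes were called lower. Cpa3 passed in 2 of 9 fits that left out a further mouse. Of 6 plasma cell markers, 5 were lower in both comparisons, with means of 7.93 to 9.44 and 8.40 to 8.71. Sdc1 was higher, by 0.34 ± 0.11 (SE) with all mice and 0.36 ± 0.11 (SE) without control mouse 1. With all mice it alone of the 6 was at an unadjusted p under 0.05 in limma. Jchain and Mzb1 passed without control mouse 1, where 0.534% of all genes were called lower. They passed in 3 and 1 of 9 fits that left out a further mouse. All 3 measured of 9 B cell markers were lower, with means of 4.03 to 6.29 and 4.18 to 4.59, and 0 passed over all genes. At an unadjusted p under 0.05 in limma, 0 and 2 of them were lower, where 3.96% and 6.56% of all genes were. Macrophage and dendritic cell markers had means of 7.15 to 7.62 and 7.15 to 7.32, with 8 of 9 lower. The mean of 8 epithelial markers was 12.19 to 12.27 in the control mice other than mouse 1 and 12.24 to 12.32 in stressed mice. The part of these cell types in the interleukin results was not tested, and in whole tissue fewer cells of a type and less RNA per cell cannot be told apart.

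**Figure D2:**
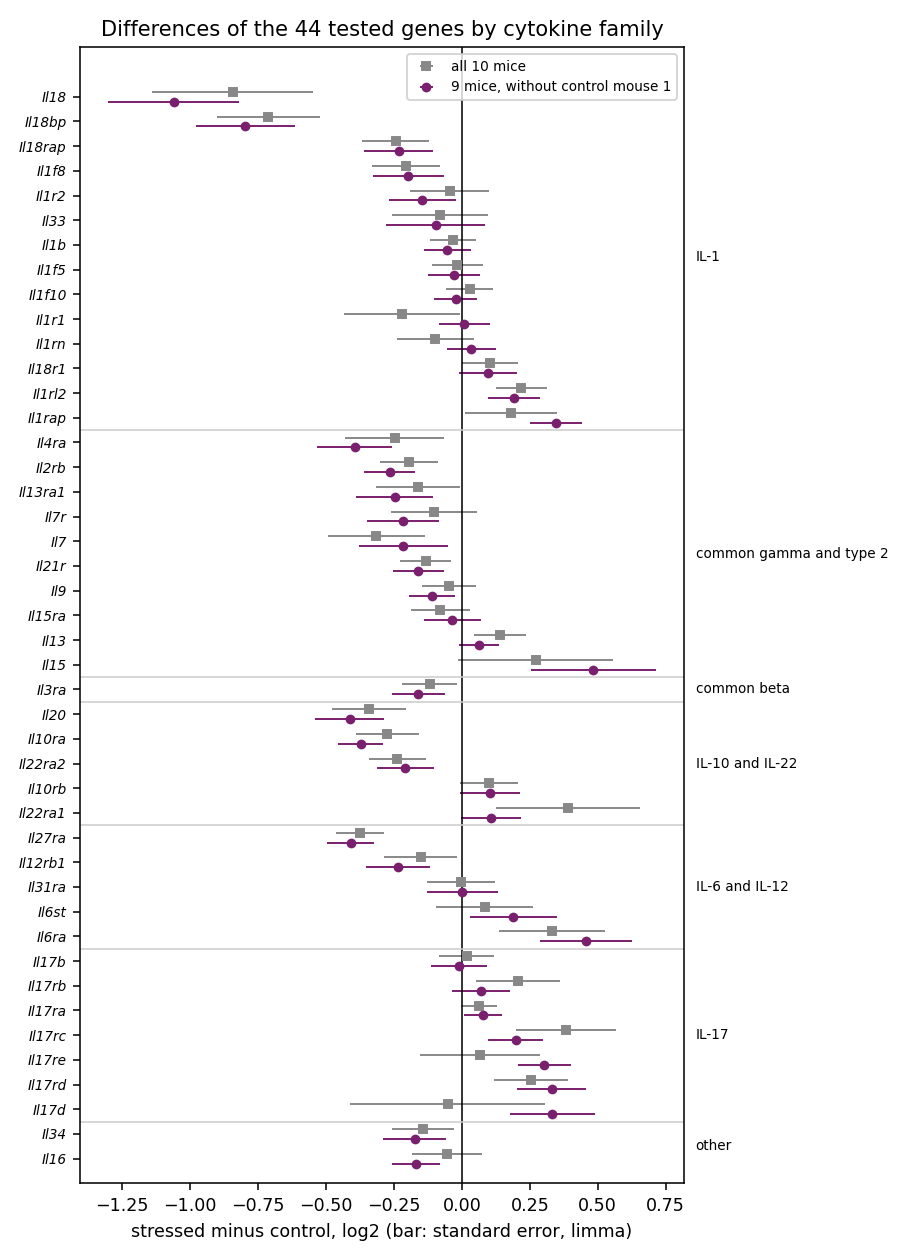
Difference of stressed minus control on the log2 scale (horizontal axis, bar for the standard error) for the 44 tested interleukin and receptor genes, grouped by cytokine family, with all 10 mice (grey squares) and without control mouse 1 (purple circles). Il18 at -0.84 and -1.06 and Il18bp at -0.71 and -0.80 lie farthest from 0.

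In the IL-10 and IL-22 family, Il20, a ligand that acts on epithelial cells, was at 4.67, 4.76, 5.24, 5.24 and 4.85 in control and at 4.60, 4.54, 4.86, 4.36 and 4.69 in stressed mice. The groups overlapped, and Il20 differed by -0.34 ± 0.14 (SE, limma adjusted p = 0.582) with all mice and -0.41 ± 0.13 (SE, adjusted p = 0.134 in limma) without control mouse 1. Il22ra2, a soluble receptor that binds IL-22 away from cells, was at 6.68, 6.62, 6.25, 6.61 and 6.66 in control and at 6.37, 6.42, 6.35, 6.42 and 6.07 in stressed mice. Control mouse 3 was below 4 of the 5 stressed mice, and the other controls were above all of them. Il22ra2 differed by -0.24 ± 0.10 (SE, limma adjusted p = 0.616) with all mice and -0.21 ± 0.11 (SE, adjusted p = 0.322 in limma) without control mouse 1.

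Il22ra1, the IL-22 receptor chain of epithelial cells, was at 5.77 in control mouse 1 and at 7.40, 7.03, 7.42 and 6.94 in the other controls, against 7.19, 7.30, 7.36, 7.23 and 7.44 in stressed mice. Its difference was 0.39 ± 0.26 (SE) with all mice and 0.11 ± 0.11 (SE) without control mouse 1, so the first value rests on that mouse. Epithelial genes that IL-22 or IL-17 induce were lower beside it, in 8 of 10 measured genes with all mice and 10 of 10 without control mouse 1, where 49.1% and 43.8% of all genes were lower. Over all genes, 3 of the 10 fell in limma without control mouse 1, where 0.534% of all genes were called lower, and 0 fell with all mice. With all mice 6 of the 10 were lower at an unadjusted p under 0.05 in limma, where 3.96% of all genes were. The list of these 10 was drawn up with earlier results on them known. The 3 were Fut2, a fucosyltransferase, Nos2, the inducible nitric oxide synthase, and Duoxa2, the maturation factor of an epithelial oxidase, which passed in 8, 3 and 7 of 9 fits that left out a further mouse.

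Read by the brightest probe set of each gene, the chains of the IL-17 receptors were a group without a lower member. All 5 tested chains were higher in stressed mice in both comparisons, with differences of 0.06 to 0.38 and of 0.07 to 0.33, although Il17re turned to just under 0 in 4 of 16 alternatives with all mice. None of the 5 was at an unadjusted p under 0.05 in limma with all mice, and 2, Il17rd and Il17re, were without control mouse 1, where 11.4% of all genes were higher at that threshold. Of all genes, 49.1% and 43.8% were lower and the others higher. Il17rc, which pairs with Il17ra to bind IL-17A, was at 8.85, 9.67, 9.97, 9.76 and 9.70 in control and at 10.03, 9.82, 9.88, 10.25 and 9.89 in stressed mice. Control mouse 1 was far below the rest, and control mouse 3 lay within the stressed range. Il17rc differed by 0.38 ± 0.18 (SE) and, without control mouse 1, by 0.20 ± 0.10 (SE, adjusted p = 0.327 in limma). Il17ra itself, the chain common to the family, differed by 0.06 ± 0.07 (SE) and 0.08 ± 0.07 (SE).

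Il17re, the chain that binds IL-17C on epithelial cells, was at 8.17, 6.92, 6.94, 6.92 and 7.20 in control and at 7.46, 7.24, 7.10, 7.45 and 7.25 in stressed mice. With control mouse 1, the highest of all, it differed by 0.07 ± 0.22 (SE), and without it by 0.30 ± 0.10 (SE, limma adjusted p = 0.144). Of its other probe sets above the filter, 1 gave 0.04 with all mice and 0.02 without control mouse 1. Another, near the filter floor, gave -0.13 and -0.04, so the direction of Il17re is not settled by these probe sets. Il17rd was at 5.62, 5.33, 5.09, 5.46 and 5.09 in control and at 5.53, 5.44, 5.86, 5.76 and 5.29 in stressed mice, and differed by 0.25 ± 0.14 (SE) and 0.33 ± 0.13 (SE, limma adjusted p = 0.204). Il17d, a ligand of the family, was at 6.18 in control mouse 1 and at 3.85 to 4.92 in the other 9 mice, and differed by -0.05 ± 0.36 (SE) with that mouse and 0.33 ± 0.16 (SE) without it. The ligand Il17a lay under the filter, at 3.49 to 3.94 in control and 3.41 to 3.66 in stressed mice, and with no filter set differed by -0.22 ± 0.10 (SE, limma adjusted p = 0.634) with all mice and -0.28 ± 0.08 (SE, adjusted p = 0.134 in limma) without control mouse 1.

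**Figure D3:**
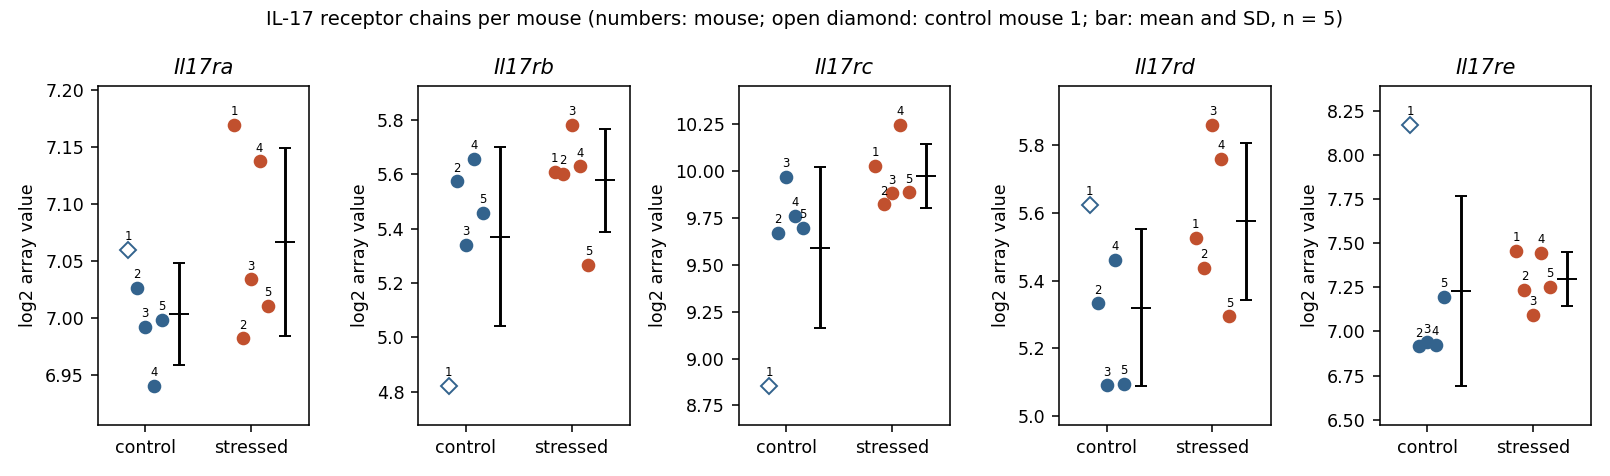
Log2 array values (vertical axes, each with its own range) of the 5 tested IL-17 receptor chains in 5 control and 5 stressed mice, 1 point per mouse labelled with its number, with the group mean and SD beside the points. Control mouse 1 (open diamond) is the lowest of all mice for Il17rb (4.82) and Il17rc (8.85) and the highest for Il17re (8.17).

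Of the IL-6 and IL-12 families, Il6ra, the ligand-binding chain of the IL-6 receptor, was at 6.57, 6.24, 5.80, 5.82 and 5.93 in control and at 6.91, 6.22, 6.29, 6.60 and 5.97 in stressed mice. It differed by 0.33 ± 0.20 (SE) with all mice and 0.46 ± 0.17 (SE, adjusted p = 0.198 in limma) without control mouse 1, while its second probe set above the filter gave -0.07 and -0.01, so the gene's direction is not settled by these probe sets. Il6st, the signal-transducing chain gp130, differed by 0.08 ± 0.18 (SE) and 0.19 ± 0.16 (SE). Of its other probe sets above the filter, 1 near the filter floor gave -0.23 and -0.12. The others gave 0.11 to 0.35 with all mice and 0.18 to 0.45 without control mouse 1. Il6, Il11, Il12a, Il12b and Il23a all lay under the filter.

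Il15, the epithelial and myeloid ligand that sustains intraepithelial lymphocytes, was at 7.37, 6.16, 6.13, 6.66 and 6.28 in control and at 6.15, 6.30, 7.14, 7.08 and 7.29 in stressed mice. The stressed mice split, with mice 3, 4 and 5 above the controls other than mouse 1 and mice 1 and 2 within them. Il15 differed by 0.27 ± 0.29 (SE) with all mice and 0.48 ± 0.23 (SE, adjusted p = 0.297 in limma) without control mouse 1. Il7, made by epithelial and stromal cells, differed by -0.31 ± 0.18 (SE) and -0.22 ± 0.16 (SE).

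**Figure D4:**
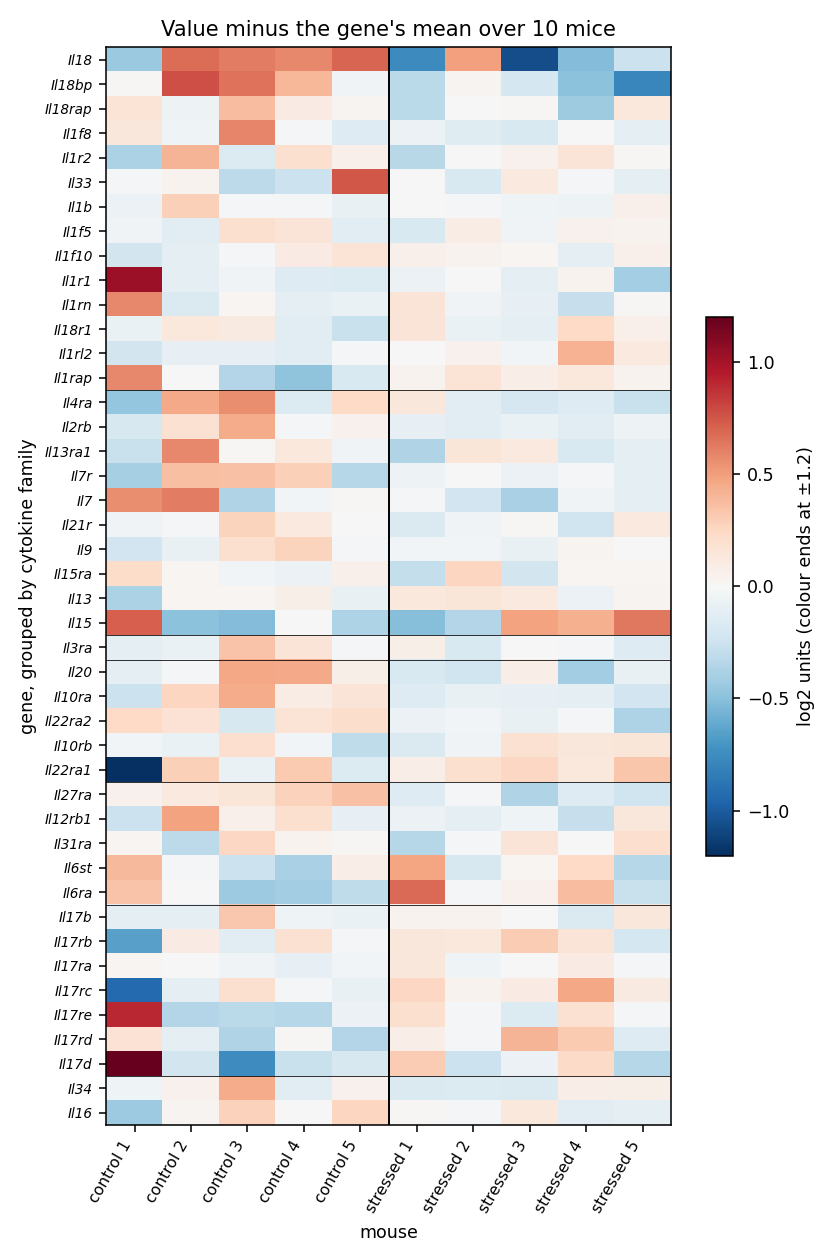
Log2 value of each tested interleukin or receptor gene (rows, grouped by family) in each mouse (columns) minus that gene's mean over the 10 mice, red for above and blue for below. Control mouse 1 is far from the mean in many rows, such as Il22ra1 at 5.77 and Il1r1 at 8.10, and in the row of Il18 the controls 2 to 5 and stressed mouse 2 are red.

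The 28 members under the filter included the ligands of activated lymphocytes Il2, Il4, Il5, Il10 and Il21, and 17 of the 31 ligands in all, against 8 of the 33 receptor chains. Their values ran from 1.64 to 4.67, and for 3 of the 28 any mouse exceeded the floor. In limma without a filter, 9 of all 72 members were lower and 1 higher at an unadjusted p under 0.05 with all mice, where 4.47% and 3.25% of 18192 genes were (7.72% together). Without control mouse 1 these counts were 14 and 4, where 7.32% and 8.93% of genes were (16.2% together). Of the 72 members 0 passed over all genes in either fit, where 0% and 0.489% of genes did, the latter made up of 0.352% lower and 0.137% higher. Near the floor of the array, log2 differences come out smaller than those of brighter genes would.

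Genes that carry interleukin signals were read from the same fits. Of 14 measured genes of JAK kinases, STAT factors and their inhibitors, 0 passed over all genes in limma. At an unadjusted p under 0.05 there was 1 with all mice (7.14%, against 7.82% of all genes). Without control mouse 1 there were 2 (14.3%, against 18% of all genes), so neither count exceeded the share of all genes. Socs3, the feedback inhibitor induced by STAT3, was at 6.65, 9.97, 10.40, 8.58 and 9.93 in control and at 7.95, 8.68, 7.67, 8.07 and 9.10 in stressed mice, and differed by -0.81 with all mice and, with control mouse 1 left out, by -1.43 ± 0.36 (SE, limma adjusted p = 0.0829). Among 20 measured genes of IL-1 family signalling and processing, 12 were lower and 8 higher with all mice, and 11 and 9 without control mouse 1. At an unadjusted p under 0.05 in limma there were 1 and 3 (5% and 15%, against 7.82% and 18% of all genes). Neither share exceeded that of all genes. Casp4, the inflammasome caspase that senses lipopolysaccharide, differed by -0.61 with all mice. It alone of the 20 passed over all genes once control mouse 1 was left out, where 0.534% of all genes were called lower, and fell there by 0.82 ± 0.12 (SE, limma adjusted p = 0.0228). It passed in 5 of 9 fits that left out a further mouse. Casp1, which cuts the IL-18 precursor, differed by -0.12 with all mice and -0.10 ± 0.09 (SE) without control mouse 1, and the adaptor Pycard differed by -0.19 ± 0.10 (SE) and -0.27 ± 0.07 (SE, adjusted p = 0.0976 in limma).

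All 4 measured genes of IL-17 signalling were lower in both comparisons, where 49.1% and 43.8% of all genes were, and the list was drawn up with earlier results known. Over all genes 2 of them fell in limma without control mouse 1, where 0.534% of all genes were called lower. Nfkbiz, a nuclear factor induced by IL-17 and Toll receptors, fell by 1.04 ± 0.13 (SE, limma adjusted p = 0.0184), and Zc3h12a, an RNase that limits cytokine transcripts, fell by 0.92 ± 0.15 (SE, limma adjusted p = 0.0294). With all mice they differed by -0.78 and -0.66 and did not pass, and control mouse 1 was at 8.00 for Nfkbiz and at 5.51 for Zc3h12a, both below every stressed mouse. Nfkbiz passed in 9 of 9 fits that left out a further mouse and Zc3h12a in 4, with adjusted p up to 0.0695 without stressed mouse 4. Of 10 measured partner chains and ligands not named as interleukins, 6 were lower and 4 higher in both comparisons, and 0 passed over all genes. At an unadjusted p under 0.05 in limma, 2 and 3 of the 10 were lower, where 3.96% and 6.56% of all genes were. Csf2rb, the common beta chain of the IL-3 and IL-5 receptors, was the lowest of the 10 in both. It differed by -0.57 with all mice and, with control mouse 1 left out, by -0.60 ± 0.13 (SE, limma adjusted p = 0.0633).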

How the data were processed

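Gene expression was measured on 1 Affymetrix 3′ array per mouse from 100 ng of total RNA. The authors deposited log2 values per probe set made with RMA, per the submitters' processing notes; base 2 was taken from the range of the values, 1.22 to 14.4, and the software version is not given in the sources used here. RMA usually gives arrays a common distribution, so a shift of all transcripts cannot be seen, and signals of different probe sets cannot be ranked as levels. Of 45101 probe sets, 34945 carried 1 gene symbol in the platform annotation, 932 several and 9160 none, and 64 were controls. Probe sets with several symbols or none were left out, as was the dimmest 40 percent by the mean over 10 arrays. The remaining 13666 genes, each by its brightest probe set, were fitted with limma 3.58.1 (lmFit and eBayes) in R 4.3.3, which was tested on simulated data, and p-values were adjusted by Benjamini-Hochberg over all of them. Titles gave group and mouse number. The members, the lists and the naming rule (members at an unadjusted p under 0.05 or without overlap, the brightest member of each role, and both chains of receptors) were chosen with earlier results of these data known. Alternatives were no filter, a 60 percent filter, the mean of a gene's probe sets, a robust fit with an intensity trend, array weights, the replicate number as a block, and each mouse left out. Precision is limited by having 1 array from each of few mice. 1 interleukin gene is not reported here.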

Additional observations from a re-analysis of the deposited data

Results flagged for a closer look

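Among the members given mouse by mouse, 19 genes in 2 groups of 5 mice were examined for a mouse far from the others of its group, and chance flags about 1 in 20 groups. Control mouse 1 was far below the other controls for Il18 (8.32, others 9.34 to 9.46) and Il17rc (8.85, others 9.67 to 9.97), and far above them for Il17re (8.17, others 6.92 to 7.20). For Il1b, control mouse 2 was far above the others (4.99, others 4.62 to 4.69). For Il22ra2, control mouse 3 (6.25, others 6.61 to 6.68) and stressed mouse 5 (6.07, others 6.35 to 6.42) were far below their groups.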

How the results depend on the processing

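With all mice, 0 members passed limma under each of the 16 alternatives, and the count of all genes called, 0, became 2 with the mean of each gene's probe sets, 41 with array weights, 109 without control mouse 1 and 2 without stressed mouse 2; over the mice left out it ranged from 0 to 109. Without control mouse 1 that count was 109, became 169 with the robust trend and ranged from 6 to 154 over the further mice left out. The count of members called there, 0, became 1 with the mean of the probe sets (Il27ra), 1 with array weights (Il27ra) and 1 with the replicate block (Il18bp), and ranged from 0 to 3 over the mice left out (Il18bp and Il7r without control mouse 5; Il18, Il18bp and Il27ra without stressed mouse 2). The cause of these changes was not tested. The replicate block drops stressed mouse 1 there. Of the 5 same-numbered pairs of mice, 2 had correlated deviations over 0.1 (range -0.30 to 0.28). With few pairs, and control mouse 1 apart from the rest, these values cannot settle whether the numbers pair the mice. With all mice the replicate block called 0 genes. Il18, Il18bp, Il27ra and Il10ra kept their direction in every alternative run. Il17re with all mice differed by 0.07, turned to -0.0079 with the mean of its probe sets and ranged from -0.011 to 0.30 over the mice left out. Members at an unadjusted p under 0.05 and lower without control mouse 1 numbered 7, 14 without a filter and 3 with the 60 percent filter.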
